A study of Homo sapiens with 10 samples.

Results

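NRF2, the transcription factor encoded by NFE2L2, its inhibitor KEAP1 and 8 enzymes of antioxidant and ferroptosis defence were examined in melanoma xenografts in which the MYC inhibitor Omomyc was switched on. The 10 genes were named by symbol (NFE2L2, KEAP1, HMOX1, NQO1, GCLC, GCLM, TXNRD1, SRXN1, GPX4 and AIFM2), and all 10 were found among the 17492 genes with a value on the arrays, each through 1 probe set. The tumour cells were A375, a long-established line of human melanoma, implanted under the skin of BALB/c nude mice, a strain that lacks T cells but keeps other immune cells. Omomyc, a mutated MYC fragment that acts as a dominant negative, is expressed in these tumour cells when the host drinks doxycycline. One group of 5 tumours came from mice given doxycycline and the other 5 from mice given its vehicle, starting when tumours reached 100 mm3, and tumours were excised after 7 days. Neither mouse age nor whether the line was 1 clone is given in the sources used here. No doxycycline-treated tumour without Omomyc was analysed here, so Omomyc and doxycycline itself cannot be told apart. The labels call the tumours biological replicas and give no batch.

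NRF2 is a transcription factor that KEAP1, an adaptor of the CUL3 ubiquitin ligase, holds at a low protein level. Electrophiles and oxidants modify KEAP1, NRF2 then accumulates, pairs with small MAF proteins and binds antioxidant response elements in genes for glutathione synthesis, thioredoxin recycling and quinone reduction. Control is therefore largely at the protein level, which an array does not measure. Ferroptosis is a cell death by peroxidation of membrane lipids. GPX4 reduces lipid peroxides with glutathione, and AIFM2 (FSP1) regenerates reduced coenzyme Q as a second barrier. Melanoma cells in a dedifferentiated state are known for their sensitivity to loss of GPX4.

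Values are log2 expression, and a change is doxycycline minus vehicle on that scale. In the account that follows, "rose" and "fell" are used for genes with an adjusted p below 0.05 in limma, adjusted over all 17492 genes. Of the 10 genes 1 fell, GCLC, and 0 rose, while over all genes 5.95% fell and 5.03% rose. At an unadjusted p below 0.05, which 24.6% of all genes reached, 3 of the 10 were lower and 1 was higher. A test per gene that did not moderate the variances, adjusted over all genes, called 1 lower and 0 higher. The median change of the 10 was -0.20, against 0.02 over all genes, and 8 of the 10 changes were below 0, against 47.6% of all genes. In 1 of the 10 the doxycycline arrays all lay above the vehicle arrays (HMOX1) and in 1 all below (GCLC), against 5.38% and 6.43% of all genes, or 11.8% in either direction.

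**Figure D1:**
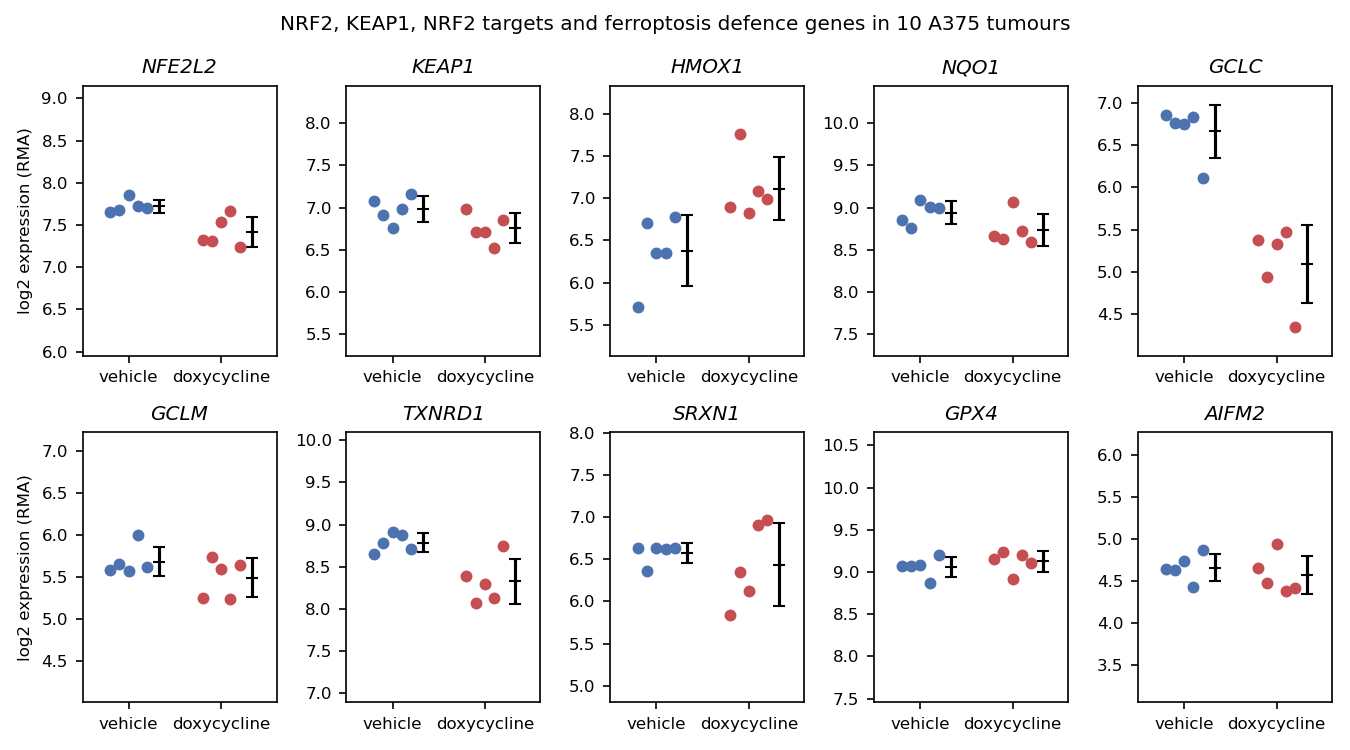
Log2 expression of each gene in the 5 vehicle (blue) and 5 doxycycline (red) tumours, 1 point per array in the order of the replicate numbers, with the mean and SD as a black bar beside each group. Each panel has its own axis of equal span, so distances but not levels can be set side by side between panels. The groups are apart for GCLC, lower with doxycycline, and for HMOX1, higher with doxycycline, and overlap for the other 8 genes.

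The promoters of the genes are shown for GCLC, the gene that fell, and for 3 genes whose promoter holds the core of the antioxidant response element, the site bound by NRF2. The sequences are from RefSeq (GRCh38.p14), 110 bases ending at the base before the annotated start, written 5′ to 3′ on the strand of the gene, with matches to the core in capitals. The core was searched on both strands as TGACNNNGC, so a match on the opposite strand reads as its reverse complement. GCLC lies on the minus strand (chr6:53545102-53545211), GCLM on the minus strand (chr1:93909431-93909540), TXNRD1 on the plus strand (chr12:104215669-104215778) and AIFM2 on the minus strand (chr10:70132826-70132935).
GCLC: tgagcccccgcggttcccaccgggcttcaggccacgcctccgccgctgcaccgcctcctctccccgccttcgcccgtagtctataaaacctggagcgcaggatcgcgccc
GCLM: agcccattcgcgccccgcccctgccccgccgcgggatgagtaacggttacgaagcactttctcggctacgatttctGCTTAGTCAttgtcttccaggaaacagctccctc
TXNRD1: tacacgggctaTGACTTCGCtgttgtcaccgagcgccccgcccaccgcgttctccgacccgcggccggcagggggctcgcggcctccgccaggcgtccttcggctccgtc
AIFM2: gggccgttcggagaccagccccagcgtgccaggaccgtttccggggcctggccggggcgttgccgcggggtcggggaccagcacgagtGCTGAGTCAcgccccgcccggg

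The promoter table covered 9 of the 10 genes with 14 windows of 300 bases, 250 before and 50 after each start, and HMOX1 was not among them. The core was found in 5 of the 14 windows, which belong to GCLM, AIFM2, KEAP1 (at 1 of its starts) and TXNRD1 (at both starts), and in 13.3% of all 35116 windows. In the first TXNRD1 window another match, on the opposite strand, begins 8 bases before the start and runs into the start base, so it is not marked. CACGTG, the E-box bound by MYC with MAX, was in 0 of the 14 windows and in 7.26% of all windows. These are matches of letters in a short window. The elements known to serve GCLC and NQO1 lie further upstream.

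GCLC encodes the catalytic subunit of glutamate-cysteine ligase, the rate-limiting enzyme of glutathione synthesis. Its log2 level was 6.86, 6.76, 6.76, 6.84 and 6.12 in vehicle tumours 1 to 5. In doxycycline tumours 1 to 5 it was 5.38, 4.94, 5.33, 5.47 and 4.34. The groups were apart, with the lowest vehicle tumour above the highest doxycycline tumour. GCLC fell by 1.57 (95% CI -2.06 to -1.09, limma, adjusted p = 0.00100, n = 5 per group), a 2.97-fold lower level. The call held under all 21 alternative analyses and arrays left out, with changes between -1.71 and -1.39 and adjusted p between 6.90e-05 and 0.0164. Among these, the other probe set rules could not alter the values of GCLC, which has 1 probe set. Vehicle tumour 5 and doxycycline tumour 5 were the lowest of their groups. In bulk tissue, fewer cells of a type and less RNA per cell cannot be told apart, here and for every gene that follows.

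GCLM encodes the modifier subunit that joins GCLC in the same enzyme and eases its feedback by glutathione. Its levels were 5.58, 5.66, 5.58, 5.99 and 5.62 in vehicle tumours and 5.25, 5.73, 5.59, 5.23 and 5.64 in doxycycline tumours. Doxycycline tumours 1 and 4 lay below all vehicle tumours and the other 3 lay among them. The change of GCLM was -0.19 (95% CI -0.50 to 0.11, adjusted p = 0.45), an interval of the array values that does not reach the change of GCLC. The GCLM means of 5.69 and 5.49 (vehicle and doxycycline) were close to the array medians (5.45 to 5.56), and doxycycline tumours 1 and 4 lay under these. Part of this signal can be background, which the interval does not take into account.

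The change of GCLC beside that of each other gene is given as a description with no test, since GCLC was singled out for its size. The change of GCLC minus that of GCLM was -1.38, and it was -1.11 against TXNRD1 and -1.27 against NFE2L2. The corresponding differences were -1.35 for KEAP1, -2.31 for HMOX1, -1.36 for NQO1, -1.64 for GPX4, -1.49 for AIFM2 and -1.43 for SRXN1. Within arrays, the log2 difference between GCLC and the other gene kept the groups apart for 8 of the 9 genes, with SRXN1 as the exception. The groups of GCLC were already apart on their own, so this count largely follows from GCLC. It was not set beside the share over all genes and says little about the other 9.

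**Figure D2:**
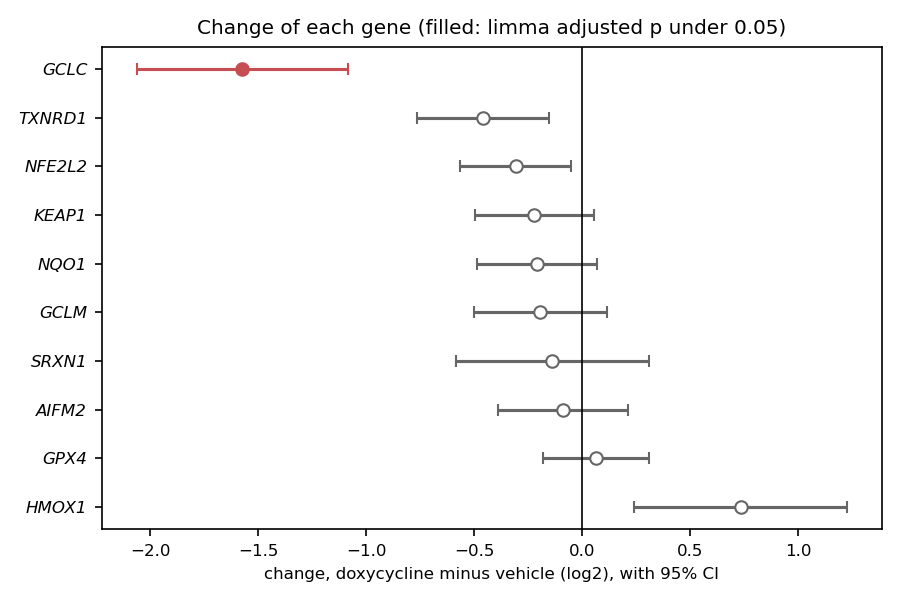
Change of each of the 10 genes, doxycycline minus vehicle on the log2 scale, as a point with its 95% confidence interval from limma (n = 5 per group). Filled red marks the adjusted p below 0.05 of GCLC, at -1.57, and the open points of the other 9 genes lie between -0.46 (TXNRD1) and 0.73 (HMOX1).

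Among the regulators, NFE2L2 was at 7.65, 7.68, 7.85, 7.73 and 7.70 in vehicle tumours 1 to 5 and at 7.32, 7.31, 7.54, 7.67 and 7.24 in doxycycline tumours 1 to 5. In 4 of the 5 doxycycline tumours it lay below every vehicle tumour, and doxycycline tumour 4 lay just inside the vehicle range. The change was -0.31 (95% CI -0.56 to -0.05), with an unadjusted p of 0.0232 and an adjusted p of 0.127 in limma, and it stayed above the threshold under all 21 alternatives (adjusted p 0.0656 to 0.248).

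KEAP1, the repressor of NRF2, was at 7.07, 6.91, 6.76, 6.99 and 7.16 in vehicle tumours and at 6.98, 6.71, 6.70, 6.52 and 6.86 in doxycycline tumours. The groups overlapped, although 3 doxycycline tumours lay below the vehicle range. Its change was -0.22 (95% CI -0.50 to 0.05, adjusted p = 0.315). The transcripts of the factor and of its repressor thus both had negative estimates that did not pass.

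HMOX1 encodes haem oxygenase 1, which breaks down haem and releases iron, and is repressed by BACH1 as well as induced by NRF2. It was at 5.71, 6.71, 6.35, 6.36 and 6.78 in vehicle tumours and at 6.90, 7.76, 6.83, 7.09 and 6.99 in doxycycline tumours. All 5 doxycycline tumours lay above all vehicle tumours, by a margin of 6.83 against 6.78 at the closest, and doxycycline tumour 2 stood above the other 4. The change was 0.73 (95% CI 0.24 to 1.23, a 1.66-fold higher mean), with an unadjusted p of 0.00681 and an adjusted p of 0.0573 in limma. The adjusted p ranged from 0.0212 to 0.130 over the 21 alternatives and was below 0.05 in 5 of them, among them the analysis without vehicle tumour 5 (adjusted p = 0.0481). Without vehicle tumour 1 the change was 0.57 (adjusted p = 0.118).

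Macrophages express HMOX1 strongly, and mouse host RNA can hybridise to these probes. Of 15 macrophage and monocyte markers 2 rose and 0 fell (3 higher and 0 lower at an unadjusted p below 0.05, 1 and 0 by the unmoderated test), CD14 by 0.79 (adjusted p = 0.0244) and LYZ by 1.28 (adjusted p = 0.000384). The changes of all 15 ran from -0.15 to 1.28 with a median of 0.22, and 5 were below 0. The mean log2 level over the 15 markers was 4.15 to 4.38 in vehicle tumours and 4.33 to 4.70 in doxycycline tumours. These means, and the CD14 mean of each group, were under the lowest array median of 5.45, so part of that signal can be background. Only CD68 and LYZ among the 15 had group means above that median. The marker mean was highest in doxycycline tumours 4 and 5 (4.70 in both), and HMOX1 was highest in doxycycline tumour 2. With a score of endothelial, macrophage and fibroblast markers as a covariate the change of HMOX1 was 0.68 (adjusted p = 0.0843). That score pools lists that differ in direction, so it cannot adjust for macrophages alone. From vehicle to doxycycline tumours the macrophage mean went from 4.26 to 4.52 and the fibroblast and pericyte mean from 5.77 to 5.57. The part of macrophages in the HMOX1 values was not tested.

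NQO1 encodes a quinone reductase that serves as a standard readout of NRF2 activity. It was at 8.85, 8.75, 9.09, 9.01 and 8.99 in vehicle tumours and at 8.66, 8.63, 9.06, 8.72 and 8.59 in doxycycline tumours. All but doxycycline tumour 3 lay below the vehicle range, and that tumour was near its top. The change was -0.21 (95% CI -0.48 to 0.07, adjusted p = 0.352).

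TXNRD1 encodes the cytosolic thioredoxin reductase, a selenoprotein that returns oxidised thioredoxin to its reduced form with NADPH. It was at 8.65, 8.78, 8.91, 8.87 and 8.71 in vehicle tumours and at 8.39, 8.07, 8.30, 8.13 and 8.75 in doxycycline tumours. Doxycycline tumours 1 to 4 lay below the vehicle range and tumour 5 lay within it. The change was -0.46 (95% CI -0.76 to -0.15), with an unadjusted p of 0.00690 and an adjusted p of 0.0578 in limma. Without doxycycline tumour 5 the change was -0.56 and passed (adjusted p = 0.0123), and the adjusted p over all 21 alternatives ran from that value to 0.129.

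SRXN1 encodes sulfiredoxin, which restores peroxiredoxins that peroxide has over-oxidised. It was at 6.64, 6.36, 6.63, 6.62 and 6.63 in vehicle tumours and at 5.84, 6.35, 6.12, 6.90 and 6.96 in doxycycline tumours. The doxycycline group fell on both sides of the vehicle group, with tumours 1 to 3 below every vehicle tumour and tumours 4 and 5 above every one, and its SD was 0.49 against 0.12. The change was -0.14 (95% CI -0.59 to 0.31, adjusted p = 0.747). Without doxycycline tumours 4 and 5 it was -0.47 (adjusted p = 0.0692), and without doxycycline tumour 1 it was 0.01 (adjusted p = 0.987). The same doxycycline tumours 4 and 5 had the lowest mean correlation with their own group over all genes (0.973 and 0.967, against 0.976 to 0.985 for the other 8 arrays) and the highest macrophage marker means. The part of either in the SRXN1 values was not tested.

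GPX4, the selenoenzyme that reduces lipid peroxides in membranes, was at 9.08, 9.07, 9.08, 8.86 and 9.20 in vehicle tumours. It was at 9.15, 9.24, 8.92, 9.20 and 9.11 in doxycycline tumours, which lay among the vehicle tumours but for tumour 2, slightly above them. The change was 0.07 (95% CI -0.18 to 0.31, adjusted p = 0.788), so the interval allows neither a fall by more than 0.18 nor a rise by more than 0.31.

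AIFM2 was at 4.64, 4.63, 4.73, 4.43 and 4.86 in vehicle tumours and at 4.66, 4.47, 4.94, 4.39 and 4.41 in doxycycline tumours. The groups overlapped, with a change of -0.09 (95% CI -0.39 to 0.21, adjusted p = 0.766), and the estimate turned positive, at 0.03, without doxycycline tumours 4 and 5. All 10 values were under the lowest of the array medians (5.45 to 5.56), and the table holds no call of detection, so part of this signal can be background. For GCLC the same holds of doxycycline tumours 1 to 5 except tumour 4, which was within that range of medians.

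Genes around these 10 were taken from 9 lists with 161 measured genes, 13 of them in more than 1 list. Of the 161, 10 rose and 25 fell, with a median change of -0.06. At an unadjusted p below 0.05, which 24.6% of all genes reached, 31 were higher and 36 lower. The unmoderated test called 9 higher and 22 lower. Over all genes 5.03% rose and 5.95% fell, with a median change of 0.02, and each list count that follows is to be set beside these shares. Among 15 further genes of NRF2 control 0 rose and 0 fell in limma, against 5 higher and 1 lower at an unadjusted p below 0.05 and 1 and 1 by the unmoderated test. NFE2L1, the NRF2 relative that controls proteasome genes, differed by 0.31 (adjusted p = 0.0734) and its doxycycline arrays all lay above the vehicle arrays. CAND1, an exchange factor of cullin ligases, differed by -0.35 (adjusted p = 0.0659). SQSTM1, the autophagy receptor that binds KEAP1, differed by 0.40 (adjusted p = 0.102). BACH1, CUL3 and MAFG differed by 0.03, 0.07 and 0.02, and the sign for BACH1 and MAFG turned without single arrays.

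Of 34 other NRF2 targets 6 fell and 1 rose, with a median change of -0.09. At an unadjusted p below 0.05, 8 were lower and 6 higher, and the unmoderated test called 7 lower and 1 higher. SLC7A11, the cystine importer that supplies cysteine to GCLC, fell by 0.99 (95% CI -1.39 to -0.59, adjusted p = 0.00481). It was at 6.41, 6.38, 6.59, 6.63 and 5.84 in vehicle tumours and at 5.58, 5.05, 5.67, 5.55 and 5.07 in doxycycline tumours. As for GCLC, vehicle tumour 5 was the lowest of its group and doxycycline tumours 2 and 5 were the lowest of theirs. The pentose phosphate enzyme TKT fell by 1.08, the microsomal glutathione transferase MGST1 fell by 1.62 and thioredoxin, TXN, fell by 0.75, whereas the efflux pump ABCC3 rose by 1.54. The doxycycline mean of SLC7A11 (5.39) and the vehicle mean of ABCC3 (5.27) were under the lowest array median of 5.45. Part of that signal can be background. FTL, the ferritin light chain, differed by 0.26 (adjusted p = 0.147).

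**Figure D3:**
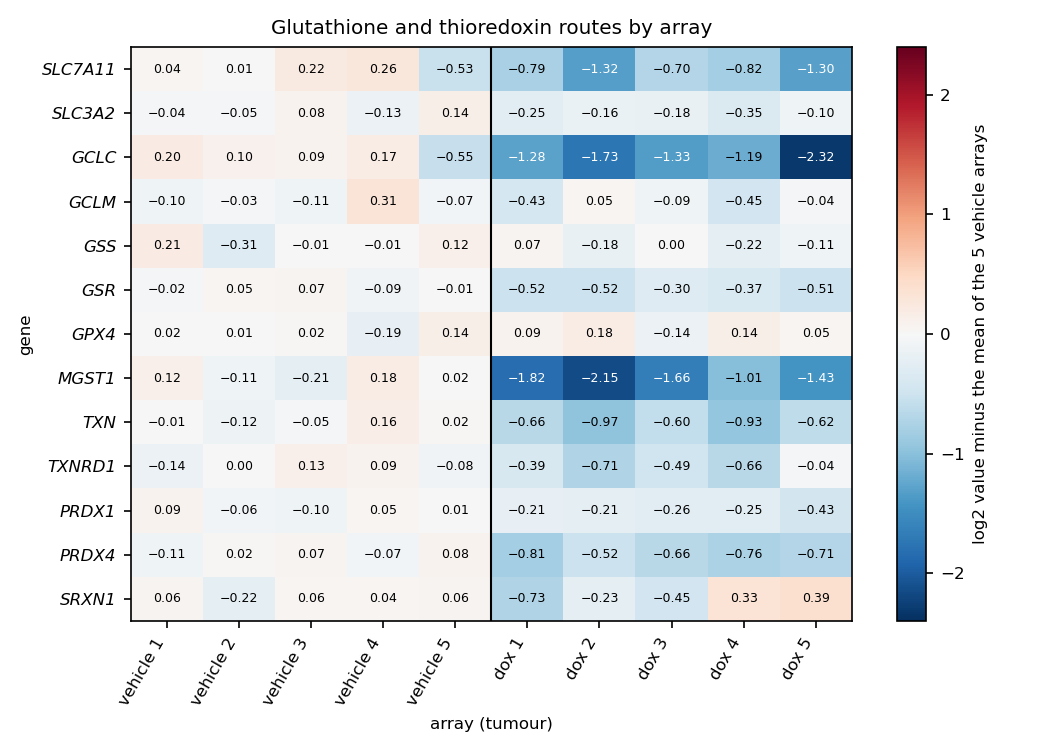
Log2 value of each gene minus the mean of the 5 vehicle arrays, for genes of the glutathione route (SLC7A11 to MGST1) and the thioredoxin route (TXN to SRXN1), 1 column per array, with blue for lower and red for higher values. SLC7A11, GCLC, GSR, MGST1, TXN, PRDX1 and PRDX4 are lower than every vehicle array in all 5 doxycycline arrays, GCLM, GSS and GPX4 are mixed, and SRXN1 is low in 3 and high in 2.

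Along the glutathione route the fall of GCLC therefore stood beside that of SLC7A11 upstream. Of 30 genes of glutathione synthesis, recycling and use 7 fell and 1 rose, with a median change of -0.15. At an unadjusted p below 0.05, 9 were lower and 5 higher, and the unmoderated test called 7 lower and 1 higher. The glutathione transferase GSTA4 fell by 1.33 and glutaredoxin, GLRX, fell by 0.90, while GSTK1 rose by 0.91. GSTA4 had a mean of 4.39 in doxycycline tumours, under the lowest array median of 5.45, so part of that signal can be background. Chosen after their values were seen, as the remaining steps of the route, GSS (glutathione synthetase) differed by -0.09, SLC3A2 (partner of SLC7A11) by -0.21, and GSR (glutathione reductase) fell by 0.44 (adjusted p = 0.0170).

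In the thioredoxin system, 4 of 22 genes fell and 4 rose, with a median change of -0.12. At an unadjusted p below 0.05, 5 were lower and 5 higher, and the unmoderated test called 4 lower and 3 higher. Beside TXN, the substrate of TXNRD1, TXNIP, which binds and inhibits thioredoxin, fell by 2.22, and the endoplasmic reticulum peroxiredoxin PRDX4 fell by 0.69. SESN1, a p53 target, rose by 1.35 from a vehicle mean of 4.51, which was under the lowest array median of 5.45 and can be background in part. PRDX1, a substrate of SRXN1, was also chosen after its values were seen and differed by -0.27 (adjusted p = 0.123).

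**Figure D4:**
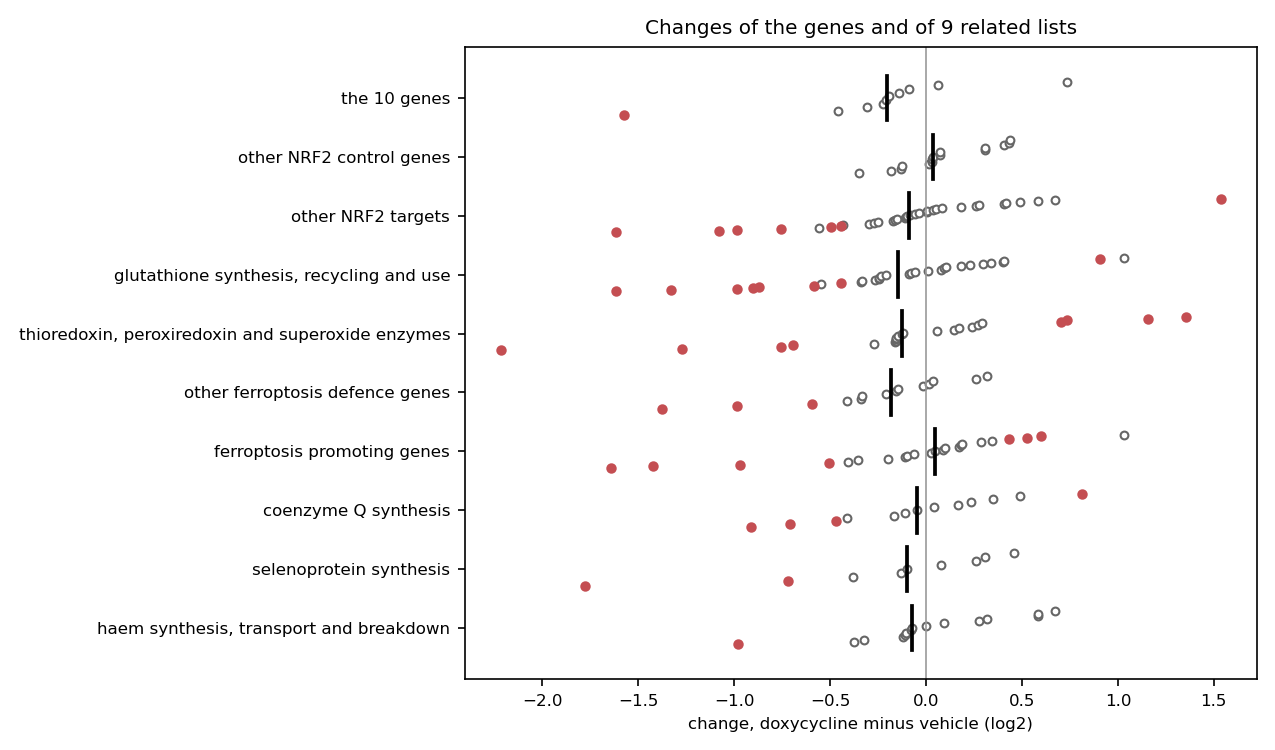
Change of every measured gene, doxycycline minus vehicle on the log2 scale, in the 10 genes and the 9 related lists, with filled red points for an adjusted p below 0.05 and black lines for medians. The list medians lie between -0.20 and 0.04, and red points stand on both sides of 0 in 5 of the 10 rows.

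Around GPX4 and AIFM2, 6 of 14 other ferroptosis defence genes were lower and 1 was higher at an unadjusted p below 0.05. The median change of the 14 was -0.18. The unmoderated test called 3 lower and 0 higher, and in limma 3 fell and 0 rose. Beside SLC7A11 these were SCD, the desaturase that makes monounsaturated fatty acids, which fell by 1.38, and CISD1, an iron-sulfur protein of the mitochondrial surface, which fell by 0.59 (adjusted p = 0.0184, but 0.0520 and 0.0505 without vehicle tumours 1 and 4). Of 23 genes that promote ferroptosis 4 fell and 3 rose (3 lower and 1 higher by the unmoderated test), with a median change of 0.04. At an unadjusted p below 0.05, 5 were lower and 5 higher. The iron importers TFRC and SLC39A14 fell by 0.97 and 1.42, and DHCR7, which consumes 7-dehydrocholesterol, fell by 1.64. LPCAT3, which inserts polyunsaturated fatty acids into phospholipids, rose by 0.60 (adjusted p = 0.0218). That call was lost without vehicle tumour 1, 2, 3 or 4 (adjusted p = 0.0569, 0.0541, 0.0534 and 0.0555) or doxycycline tumour 1 (0.0503), and with the replicate number as a block (0.0756).

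For the cofactors, 3 of 13 genes of coenzyme Q synthesis and handling fell and 1 rose (1 lower and 1 higher by the unmoderated test). Their median change was -0.05, and at an unadjusted p below 0.05, 4 were lower and 3 higher. PDSS1, which makes the side chain of the AIFM2 substrate, fell by 0.91 and COQ10B rose by 0.81. COQ2 fell by 0.71 (adjusted p = 0.0217), a call lost without vehicle tumour 1, 3 or 4 or doxycycline tumour 2 (adjusted p = 0.0566, 0.0525, 0.0563 and 0.0519) and in the unmoderated test (0.0720). COQ7 fell by 0.47 (adjusted p = 0.0495), a call lost on leaving out any single array (adjusted p 0.0528 to 0.117). With all arrays kept it was also lost with the replicate block (0.0582), median centring (0.0519), the stroma score as a covariate (0.0547) and the unmoderated test (0.0645). GPX4 and TXNRD1 depend on selenoprotein synthesis. Of 9 genes listed under it, 5 changes were below 0, with a median of -0.10, and at an unadjusted p below 0.05, 3 were lower and 1 higher. In limma 2 fell and 0 rose, and the unmoderated test called 2 lower and 0 higher. The genes that fell were LRP8, a receptor for selenoprotein P, which fell by 1.78, and SEPHS1, which fell by 0.72. SEPHS2, chosen after its values were seen, differed by 0.31 (limma adjusted p = 0.260). The part of SEPHS1 in the synthesis of GPX4 and TXNRD1 was not tested. Of 15 genes of haem handling, the pathway of HMOX1, 1 fell and 0 rose (4 higher and 1 lower at an unadjusted p below 0.05, 1 higher and 0 lower by the unmoderated test), with a median change of -0.08. That gene was the haem exporter FLVCR1, which fell by 0.98 (adjusted p = 0.0323). FLVCR1 had a mean of 5.09 in doxycycline tumours, under the lowest array median of 5.45, so part of that signal can be background. The call of FLVCR1 was lost without vehicle tumour 1, 2, 3 or 4 (adjusted p = 0.0733, 0.0656, 0.0688 and 0.0787) or doxycycline tumour 1 or 2 (adjusted p = 0.0703 and 0.0740), and in the unmoderated test (0.104).

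The genes whose profile was most like that of GCLC, outside all these lists, were PHLDA2 and CCN3. Likeness was the root mean square difference over the 10 arrays after each gene was set to a vehicle mean of 0, and it was 0.24 for PHLDA2 and 0.25 for CCN3 on the log2 scale. PHLDA2 fell by 1.62 and CCN3 fell by 1.48, and both, like GCLC, were lowest in doxycycline tumour 5. Both were picked for likeness on these same arrays, so these similarities are no separate observation. CCN3 had a mean of 3.97 in doxycycline tumours, under the lowest array median of 5.45, so part of that signal can be background.

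The labelled cell type was checked against markers. Of 10 melanocyte and melanoma markers 0 rose and 0 fell in limma (1 higher and 1 lower at an unadjusted p below 0.05, 0 by the unmoderated test), and SOX10, PRAME and MIA had mean levels of 7.40, 8.59 and 8.38 in vehicle tumours, above the array medians. The pigment genes MLANA, PMEL and TYR had mean levels of 3.12, 3.23 and 3.00 there, below those medians. Of 11 endothelial, 9 fibroblast and pericyte and 6 red blood cell markers 0 rose and 0 fell in limma and in the unmoderated test. At an unadjusted p below 0.05, 2 endothelial markers were lower, 2 fibroblast and pericyte markers were higher and 3 lower, and 1 red blood cell marker was higher. The median change was 0.07 for the endothelial, -0.49 for the fibroblast and pericyte and -0.17 for the red blood cell markers. Of the 9 fibroblast and pericyte changes 6 were below 0. In 1 of these 9, PDGFRB (-0.57, limma adjusted p = 0.0506), the doxycycline arrays all lay below the vehicle arrays, and in 0 all above. The mean log2 level of each of these lists overlapped between doxycycline and vehicle tumours.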

How the data were processed

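Total RNA of 10 A375 xenografts, extracted with TRIzol per the labels' protocols, was measured on Affymetrix arrays. The values deposited are log2 expression, and the submitters' processing notes name RMA. Its version is not given in the sources used here, nor is the genome build. Of 18569 probe sets, 17511 had 1 gene symbol in the platform annotation, 0 had several and 1058 had none listed. Where a gene had more than 1 probe set (17 genes), the one with the highest mean was used, which gave 17492 genes. Precision is limited by the number of arrays.

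A linear model with group alone was fitted to all genes in limma 3.58.1 (R 4.3.3), followed by eBayes. Two-sided p-values were adjusted by the Benjamini-Hochberg method and called below 0.05. The procedure was tested on simulated data. The 10 genes and the related lists were chosen with earlier results of these data known, so lists are given as counts and medians with no set test. Text names the 10 genes, 9 partner genes where measured, up to 4 genes with the smallest p per list, and the 2 genes most like each called gene, 43 in all. GSS, SLC3A2, GSR, PRDX1 and SEPHS2 were named outside this rule, as were the cell type markers, all picked after their values were seen. Listed genes without a value were not analysed here.

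Alternatives were array weights, a replicate block, eBayes with trend and robust settings, quantile normalization once more, centring on medians, omission of the dimmest 30% of genes, other probe set rules, an unmoderated test of unequal variances (Welch), a stroma score (35 endothelial, macrophage and fibroblast markers) as covariate, and arrays left out.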

Additional observations from a re-analysis of the deposited data

Results flagged for a closer look

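Among the named genes, 86 groups of 5 arrays were examined for a single array far from the other 4, and 10 such values were found, where chance flags about 5% of groups. The gap to the nearest other array took up more than 71% of the whole range of the group in each. Among the 10 genes of the report, GCLC in vehicle tumour 5 was low (6.12, next value 6.76), SRXN1 in vehicle tumour 2 was low (6.36, next value 6.62) and GCLM in vehicle tumour 4 was high (5.99, next value 5.66). HMOX1 in doxycycline tumour 2 was high (7.76, next value 7.09), as was NQO1 in doxycycline tumour 3 (9.06, next value 8.72). Among the related genes, vehicle tumour 2 was low for GSTK1 (7.98) and for SCD (8.84), and vehicle tumour 5 was high for LPCAT3 (6.59). Doxycycline tumour 4 was high for SCD (8.29) and doxycycline tumour 5 for SLC39A14 (6.48). The technical or biological source of these values was not tested.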

How the results depend on the processing

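The fall of GCLC held under all 21 alternatives, of which the other probe set rules could not alter values of the 10 genes, each with 1 probe set. The number of the 10 genes that fell was 1, and 2 with trended and robust moderation, array weights, the dimmest 30% of genes left out, the stroma score as a covariate or doxycycline arrays 4 and 5 left out, with TXNRD1 as the gene added. It was 1 to 2 when single arrays were left out. The number that rose was 0, and 1 (HMOX1) with the replicate block, trended and robust moderation, array weights or the dimmest genes left out, and 0 to 1 when single arrays were left out. Of the related genes 10 rose, but 23 did with trended and robust moderation and 17 with the dimmest genes left out. Their number that fell was 19 to 29 over all alternatives. The causes were not tested. The labels do not say whether the same replicate numbers in both groups pair tumours. Correlations of same-numbered deviations were 0.038, 0.079, 0.0068, -0.063 and 0.19, and 2 of 5 vehicle arrays correlated best with their own number. So few values cannot decide whether the numbers pair tumours. With the replicate block 1 of the 10 genes rose, and 22 of the related genes fell and 8 rose. Estimates near 0 turned sign when single arrays were left out for SRXN1 (range -0.27 to 0.0096), BACH1 (-0.0187 to 0.11) and MAFG (-0.0782 to 0.12), and for AIFM2 without doxycycline arrays 4 and 5 (0.0293). Of 903 values of named genes under alternatives, 843 kept their direction and side of the threshold. That count includes the other probe set rules, which could not alter genes with 1 probe set. The small number of arrays limits what can be called.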
